A study of Homo sapiens with 12 samples.

Results

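The genes described here are 51 nuclear receptors and coregulators other than the glucocorticoid receptor itself: 37 receptor genes, 13 coregulator genes and CRABP2, which encodes a carrier of retinoic acid. They were taken by gene symbol from a count table of 51838 genes. Of the 51, 43 had enough reads to be tested. RNA was sequenced from HCC70 and MDA-MB-231, established human breast cancer lines that the study calls basal-like. Each line was kept for 4 h in 100 nM dexamethasone (DEX), a synthetic glucocorticoid, or in ethanol vehicle, with 3 libraries per line and treatment and 12 in all. The stated purpose was to find genes controlled by the glucocorticoid receptor and by STAT3. The culture medium was RPMI for HCC70 and DMEM for MDA-MB-231, and effects of line and of medium cannot be told apart. Nothing in the labels states that the replicates are separate cultures, and p-values then reflect only library-to-library spread, which may be technical.

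Nuclear receptors are transcription factors that bind DNA as monomers, as pairs of the same receptor or together with a retinoid X receptor (RXR), and many are switched by a small lipophilic ligand such as estrogen, retinoic acid, thyroid hormone, vitamin D or fatty acids. Those with no established ligand are called orphan receptors. Bound receptors exchange corepressors such as NCOR1 for coactivators of the NCOA family, which bring in the acetyltransferases CREBBP and EP300. Further coregulators are the chromatin remodeller SMARCA4, the histone methyltransferases EHMT1 and EHMT2, the heterochromatin protein CBX3, the repressor NRIP1 and the metabolic coactivators PPARGC1A and PPARGC1B. Several of these proteins also work with the glucocorticoid receptor, so they are shared between hormone pathways.

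Library totals ran from 106345287 to 123218973 counts. FKBP5, a classical glucocorticoid target, was 6.2-fold higher with DEX in HCC70 and 19.9-fold higher in MDA-MB-231, in all 3 treated libraries of each line. The receptor gene NR3C1 averaged 52.1 ± 1.54 CPM with DEX and 56.6 ± 3.41 CPM in vehicle in HCC70, and 88.9 ± 2.25 CPM with DEX and 125 ± 9.14 CPM in vehicle in MDA-MB-231 (SD, n = 3; CPM are each library's counts scaled to a common total, with TMM factors). The basal keratins KRT5, KRT14 and KRT17 stood at 2600, 86.7 and 254 CPM in HCC70 vehicle, and at 0.804, 0.238 and 1.28 CPM in MDA-MB-231 vehicle. Of the other basal markers, TP63 was at 1.37 CPM in HCC70 and 0.326 CPM in MDA-MB-231, and EGFR at 328 and 356 CPM. The mesenchymal markers VIM, ZEB1, CDH2 and FN1 were at 145, 0.373, 0 and 256 CPM in HCC70 vehicle, and at 2210, 48.5, 2.28 and 599 CPM in MDA-MB-231 vehicle. Basal keratins were thus near absent in MDA-MB-231, and mesenchymal markers were higher there. Of the luminal markers, FOXA1 had 17711 counts over the vehicle libraries of HCC70 and 8 over those of MDA-MB-231. GATA3 had 24239 and 4042 counts, KRT8 403439 and 295880, KRT18 150788 and 255099, and ELF5 6 and 3. Of 5 markers of immune, endothelial and stromal cells, COL3A1 and DCN had no count in HCC70, and PTPRC, CDH5, COL3A1 and DCN were at or under 0.187 CPM in every group. The fifth, CD14, averaged 42.3 CPM with DEX and 36.4 CPM in vehicle in HCC70, and 0.648 CPM with DEX and 0.751 CPM in vehicle in MDA-MB-231. Log2 fold changes followed GC content across genes, in opposite directions in the lines (Spearman rho 0.569 in HCC70 and -0.509 in MDA-MB-231 over 10205 genes, which share libraries and are not independent). MDA-MB-231 vehicle 1 and DEX 2 deviated most from their groups. The share of mitochondrial reads was 2.73 to 2.82% with DEX and 3.48 to 3.83% in vehicle in HCC70. It was 3.02 to 3.65% with DEX and 2.5 to 3.89% in vehicle in MDA-MB-231.

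In HCC70, DEX raised the coactivators PPARGC1B and PPARGC1A and the thyroid hormone receptor THRA, and lowered the orphan receptors NR2F2 and NR4A2 and the retinoic acid receptor RARB. These 6 are 14.0% of the 43 tested members, against 3.96% of all 28141 tested genes, of which 2.55% rose and 1.4% fell (edgeR quasi-likelihood test, Benjamini-Hochberg adjusted p under 0.05 over all genes). In MDA-MB-231, 18 members passed, 41.9% of the 43 against 14.6% of all genes. Of them 8 rose (ESRRG, THRA, PPARG, HNF4G, NR5A2, NCOA3, NRIP1 and PPARGC1A) and 10 fell (RARA, RARG, CRABP2, THRB, VDR, PPARD, NR2F1, NR2F2, NR4A2 and EHMT2), against 6.65% of all genes that rose and 7.96% that fell. PPARGC1A and THRA rose in both lines and NR2F2 and NR4A2 fell in both, and no member was called in opposite directions in this fit. Without MDA-MB-231 vehicle 1 and DEX 2, 5 members were: ESRRA, RARA, RXRA, NR2F6 and SMARCA4 were then called higher in HCC70 and lower in MDA-MB-231, and with the GC trend removed none of these 5 was called in both lines. The median log2 fold change of the tested members was 0.02 in HCC70, against -0.01 over all genes, and -0.12 in MDA-MB-231, against -0.01 over all genes. Changes of at least 2-fold were reached by 1 called member in HCC70, against 0.654% of all genes, and by 5 in MDA-MB-231, against 3.52% of all genes. With MDA-MB-231 fitted alone, the calls of RARA, RARG, CRABP2, THRB, VDR, NR2F1 and EHMT2 ended (adjusted p = 0.0888 to 0.156). ESRRG then had too few reads to be tested, and NR4A3 came in. With HCC70 fitted alone, the 6 members named for HCC70 passed, and ESR1, ESRRA, RARA, RARG, RXRA, VDR, NR1H2 and NR2C1 came in. So did NR2F6, NR4A1, NCOA2, NRIP1, EP300, SMARCA4 and EHMT1. More members then passed in HCC70 than with MDA-MB-231 fitted alone, the reverse of the joint fit. The share of all genes called in these single-line fits is not reported here. The groups did not overlap for 26 members in HCC70, against 32.4% of all genes, and for 20 in MDA-MB-231, against 27.2% of all genes. In the joint fit, a further 23 tested members were called in neither line. In these bulk samples, fewer cells of a type and less RNA per cell cannot be told apart.

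**Figure D1:**
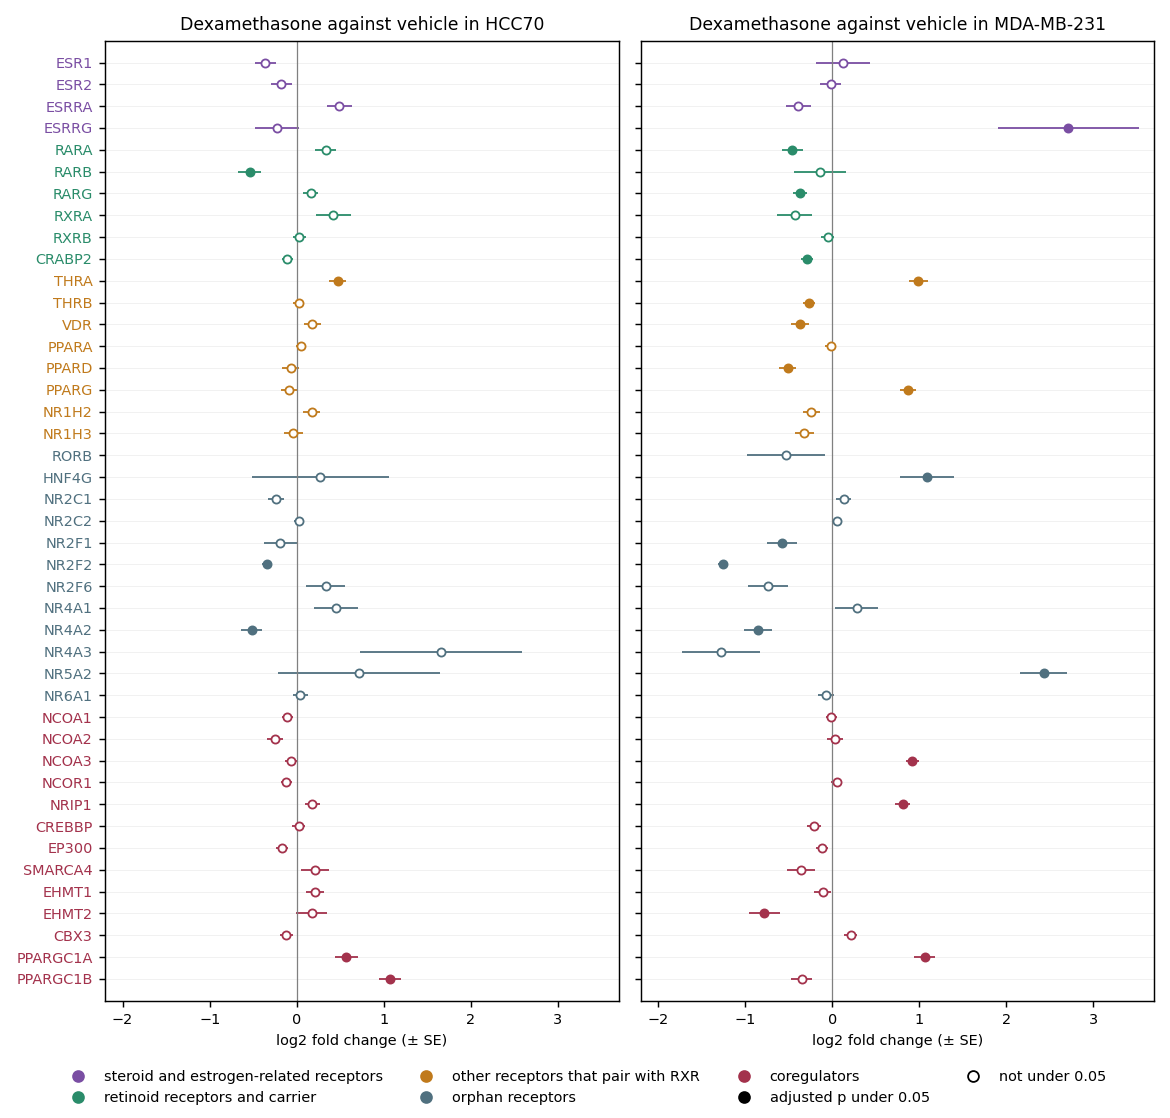
Log2 fold change (x axis, ± SE) of each tested member with DEX against vehicle, in HCC70 on the left and MDA-MB-231 on the right, 3 libraries per group; filled points passed the adjusted p of 0.05 and colours mark the roles. RORB has no point in HCC70, where it had no counts. NR2F2 and NR4A2 lie left of 0 and THRA and PPARGC1A right of 0 in both panels, and PPARGC1B (1.07 in HCC70) passed in HCC70 and not in MDA-MB-231.

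Among the coregulators, the PGC-1 coactivators, which drive mitochondrial and fatty acid oxidation genes together with PPAR and estrogen-related receptors, moved most in HCC70. PPARGC1B (ENSG00000155846.12) had 4.12, 4.52 and 5.44 CPM in the DEX libraries of HCC70, against 2.61, 1.81 and 2.29 CPM in vehicle. All 3 DEX libraries lay above all vehicle libraries there, with a log2 fold change of 1.07 ± 0.13 (SE, adjusted p = 0.000259). In MDA-MB-231 the same gene had 5.25, 4.95 and 5.18 CPM with DEX, against 6.93, 6.18 and 6.48 CPM in vehicle. There the DEX libraries lay below all vehicle libraries, and the difference did not pass the test (log2 fold change -0.35 ± 0.12, adjusted p = 0.0768). All HCC70 libraries lay below all MDA-MB-231 vehicle libraries. This gene was called under every alternative that was run in HCC70.

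PPARGC1A (ENSG00000109819.4), the better known PGC-1 gene, was low in all groups. It had 1.76, 1.86 and 2.29 CPM in the DEX libraries of HCC70, against 1.4, 1.3 and 1.27 CPM in vehicle. In MDA-MB-231 it had 4.87, 4.64 and 5.4 CPM with DEX, against 2.14, 2.46 and 2.53 CPM in vehicle. Every DEX library lay above every vehicle library of its line. The log2 fold change was 0.57 ± 0.13 in HCC70 (adjusted p = 0.0202) and 1.06 ± 0.12 in MDA-MB-231 (adjusted p = 2.1e-05). In HCC70 it no longer passed when DEX 3 (adjusted p = 0.104), vehicle 1 (0.0578), vehicle 2 (0.083) or vehicle 3 (0.071) was left out, or with scaling by library size only (0.0614). The MDA-MB-231 call held under every alternative.

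The promoter windows of these coactivator genes are printed because both genes rose with DEX in HCC70 and a window of each holds letters of a glucocorticoid response element. A window is the 250 bases before an annotated start. In MDA-MB-231 only PPARGC1A rose, and PPARGC1B had a log2 fold change of -0.35 and was not called. The sequences are those of RefSeq on GRCh38.p14, another build than the hg19 of the counts, and 45 of the 51 members had at least 1 window there, 97 windows in all. Capitals mark the matched letters, and both strands were searched. The first window lies before the farther upstream of the 2 annotated PPARGC1A starts, at chr4:24472906-24473155 on the minus strand, with the match to GNACA and TGTNC spaced by 3 bases at bases -162 to -150. The second lies before the PPARGC1B start, at chr5:149771690-149771939 on the plus strand, with the match to TGTTCT, a single arm of the element, at bases -225 to -220.
PPARGC1A: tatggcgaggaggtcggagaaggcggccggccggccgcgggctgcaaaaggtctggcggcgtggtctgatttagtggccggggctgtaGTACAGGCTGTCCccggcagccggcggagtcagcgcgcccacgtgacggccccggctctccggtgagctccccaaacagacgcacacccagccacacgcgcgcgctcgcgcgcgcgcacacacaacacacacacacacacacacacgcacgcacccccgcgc
PPARGC1B: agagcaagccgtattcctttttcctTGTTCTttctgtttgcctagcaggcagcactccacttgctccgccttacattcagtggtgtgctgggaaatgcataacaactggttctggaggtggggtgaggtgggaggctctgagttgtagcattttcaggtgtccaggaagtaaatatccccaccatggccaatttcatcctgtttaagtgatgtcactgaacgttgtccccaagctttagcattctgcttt
The full motif, GNACA and TGTNC spaced by 3 bases, occurred in 0.327% of 35116 windows of all genes, and among the members only in that of PPARGC1A. The single arm, AGAACA or TGTTCT, whose letters overlap the full motif in part, occurred in 12.4% of all windows and in 13 of the 97 member windows. The window of the other PPARGC1A start held neither motif. By gene, it occurred in 14.8% of all genes and in 12 of the 45 members. Besides PPARGC1B these were ESRRG, NR2F1, NR5A2, PPARD and RARB, which were called in 1 line each, CREBBP, ESR1, RXRA and RXRB, which were called in neither, and NR0B1 and NR1I2, which were not tested. A match describes letters in the window, and the counts do not tell which start was used.

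Of the other 11 coregulators, NRIP1 and NCOA3 rose and EHMT2 fell in MDA-MB-231. NRIP1 (ENSG00000180530.5), which encodes RIP140, a ligand-dependent corepressor, had 28.2, 26.4 and 28 CPM with DEX, against 13.2, 17.7 and 16.3 CPM in vehicle. NCOA3 (ENSG00000124151.11), a coactivator amplified in some breast cancers and also known as AIB1, had 97.2, 95.3 and 108 CPM with DEX, against 47.9, 57 and 53.2 CPM in vehicle. The groups did not overlap for either gene. The log2 fold changes were 0.81 ± 0.087 for NRIP1 (adjusted p = 1.74e-05) and 0.92 ± 0.071 for NCOA3 (adjusted p = 5.07e-07). Exons of NCOA3 share 96 bases with SULF2 on the opposite strand, and the library kit did not mark strand. SULF2 was at 0.972 to 1.32 CPM with DEX and 0.539 to 0.797 CPM in vehicle in MDA-MB-231 (log2 fold change 0.84, adjusted p = 0.00071). It was at 305 to 317 CPM with DEX and 247 to 259 CPM in vehicle in HCC70, above NCOA3, so the part of shared reads in the HCC70 values and in the line difference of NCOA3 was not tested. In HCC70 the same genes did not pass: NRIP1 had 48.7, 47.5 and 49.6 CPM with DEX, against 45, 41.3 and 42.7 CPM in vehicle. NCOA3 had 69.6, 66.9 and 72 CPM with DEX in HCC70, against 75.3, 71.6 and 72.3 CPM in vehicle.

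EHMT2 (ENSG00000204371.6), a histone methyltransferase also known as G9a, was the coregulator that fell in MDA-MB-231. It had 90.5, 133 and 98.2 CPM with DEX, against 236, 169 and 146 CPM in vehicle. The groups did not overlap, but vehicle 1 stood well above the other vehicle libraries and DEX 2 above the other DEX libraries. EHMT2 changed by -0.78 ± 0.18 on the log2 scale (adjusted p = 0.0154), and -0.46 with the GC trend removed (adjusted p = 2.56e-05). The call ended without DEX 1 (adjusted p = 0.0652) or DEX 3 (0.0663), and with MDA-MB-231 fitted alone (0.115). Its exons share 592 bases with EHMT2-AS1 on the opposite strand, which was lower in the same libraries (log2 fold change -0.57, adjusted p = 0.00852). EHMT2-AS1 was at 3.25 to 4.54 CPM with DEX and 5.07 to 6.59 CPM in vehicle there, far below EHMT2. Reads in the shared bases cannot be told apart. The remaining 8 coregulators were called in neither line. SMARCA4, the most abundant of them in counts, averaged 528 ± 27.6 CPM with DEX and 455 ± 17 CPM in vehicle in HCC70, and 218 ± 42.8 CPM with DEX and 280 ± 63.4 CPM in vehicle in MDA-MB-231. Without MDA-MB-231 vehicle 1 and DEX 2 it passed in both lines, in opposite directions (log2 fold change 0.21, adjusted p = 0.038 in HCC70, and -0.32, adjusted p = 0.00916 in MDA-MB-231). With the GC trend removed it was -0.05 (adjusted p = 0.57) and 0.01 (adjusted p = 0.934). NCOA1, NCOA2, NCOR1, CREBBP, EP300, EHMT1 and CBX3 had log2 fold changes of -0.25 (NCOA2) to 0.21 (EHMT1) in HCC70 and of -0.21 (CREBBP) to 0.21 (CBX3) in MDA-MB-231.

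**Figure D2:**
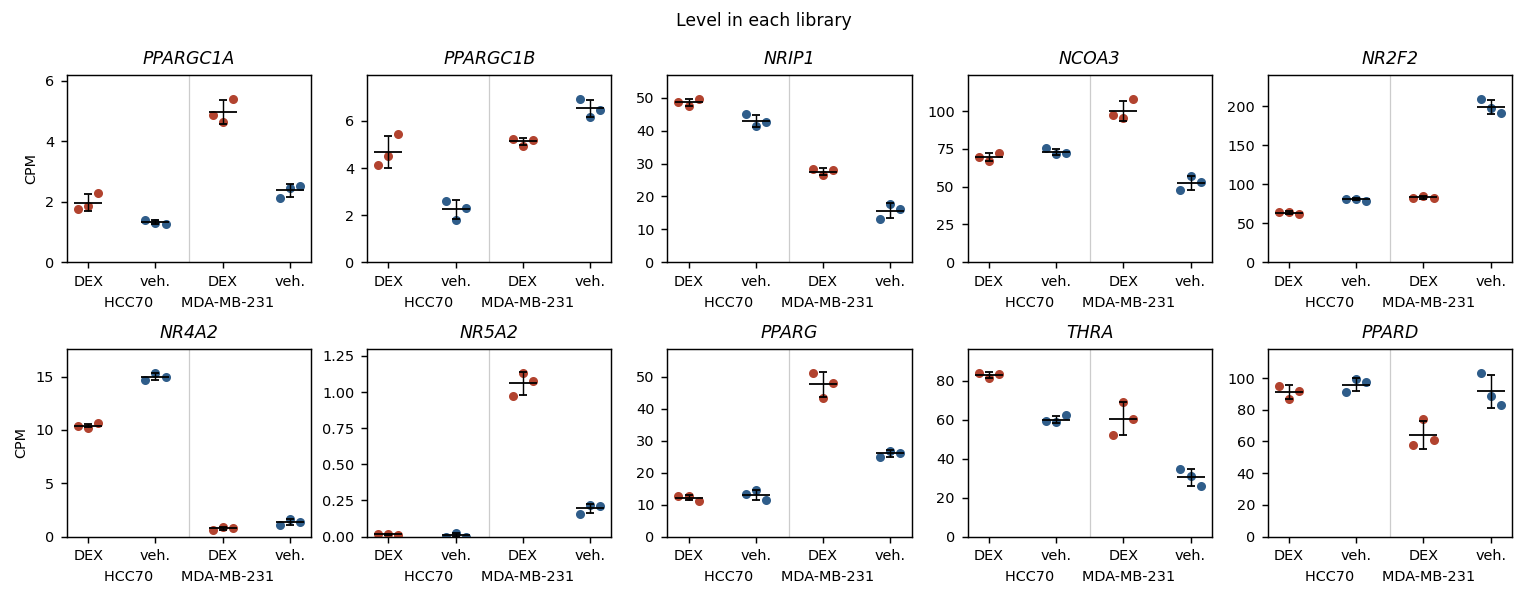
CPM (y axis, from 0) in each of the 12 libraries for 10 members, DEX in red and vehicle in blue, with the mean and SD of each group of 3; scales differ between panels. NCOA3 and PPARG separated fully in MDA-MB-231 and overlapped in HCC70, while NR2F2 lay lower with DEX in both lines, at 61.6 to 64.7 CPM in HCC70 and 81.7 to 85.3 CPM in MDA-MB-231.

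Retinoic acid acts through RARA, RARB and RARG paired with RXR, and CRABP2 delivers it to them. Of the 6 tested genes of this group, 1 fell in HCC70 (1.4% of all genes fell) and 3 fell in MDA-MB-231 (7.96% of all genes fell). RARA, RARG and RXRA lay above all vehicle libraries in HCC70 without passing, and passed there with HCC70 fitted alone (log2 fold change 0.33, 0.16 and 0.41, adjusted p = 9.38e-05, 0.0314 and 0.000422). RARB (ENSG00000077092.13), itself a retinoic acid target, had 1.64, 1.46 and 1.66 CPM with DEX in HCC70, against 2.53, 2.23 and 2.18 CPM in vehicle. The DEX libraries lay below all vehicle libraries (log2 fold change -0.54 ± 0.13, adjusted p = 0.0287), and the call ended without any 1 of the 6 HCC70 libraries (adjusted p = 0.0547 to 0.152). In MDA-MB-231, RARB was at 0.0485 to 0.0697 CPM with DEX and 0.0502 to 0.0788 CPM in vehicle, and the groups overlapped. CRABP2 (ENSG00000143320.4) had 3.28, 3.36 and 3.92 CPM with DEX in MDA-MB-231, against 4.33, 4.16 and 4.4 CPM in vehicle. These groups did not overlap. CRABP2 changed by -0.29 ± 0.07 on the log2 scale (adjusted p = 0.0141), and the call ended without DEX 1 (adjusted p = 0.0794) or DEX 2 (0.0567). It also ended without vehicle 1 and DEX 2 together, and with MDA-MB-231 fitted alone. CRABP2 was far higher in HCC70, at 482, 486 and 489 CPM with DEX, against 538, 525 and 510 CPM in vehicle, which did not pass (adjusted p = 0.374).

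RARA (ENSG00000131759.12) had 23, 32.5 and 24.5 CPM with DEX in MDA-MB-231, against 43.3, 33.4 and 33.9 CPM in vehicle. RARG (ENSG00000172819.10), the RAR most linked to epithelium, had 15.1, 19.3 and 17.2 CPM with DEX in MDA-MB-231, against 24.3, 21.8 and 20.4 CPM in vehicle. Neither gene's groups overlapped, though DEX 2 of RARA came within 1 CPM of the lowest vehicle library. The log2 fold change was -0.46 ± 0.12 for RARA (adjusted p = 0.0233) and -0.37 ± 0.085 for RARG (adjusted p = 0.00982). Both calls ended with the GC trend removed, at -0.10 (adjusted p = 0.24) and -0.11 (adjusted p = 0.152). RARA also lost its call without DEX 1 (adjusted p = 0.0985), DEX 3 (0.0995) or vehicle 1 (0.0624), and RARG without DEX 1 (0.0503). Fitting MDA-MB-231 alone ended both calls too. RXRA, the common partner, averaged 253 ± 7.94 CPM with DEX and 190 ± 19 CPM in vehicle in HCC70, and 85.1 ± 19.6 CPM with DEX and 115 ± 32.5 CPM in vehicle in MDA-MB-231. It passed in neither line (adjusted p = 0.301 and 0.18), and neither did RXRB. Without MDA-MB-231 vehicle 1 and DEX 2, RXRA passed in both, at 0.42 in HCC70 (adjusted p = 0.00968) and -0.37 in MDA-MB-231 (adjusted p = 0.0333).

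Among the other receptors that pair with RXR, THRA and PPARG rose and PPARD, VDR and THRB fell in MDA-MB-231, and THRA alone was called in HCC70. THRA (ENSG00000126351.7), the thyroid hormone receptor alpha gene, had 83.7, 81.2 and 83.6 CPM with DEX in HCC70, against 59.1, 58.6 and 62.1 CPM in vehicle. In MDA-MB-231 it had 52, 68.8 and 60.3 CPM with DEX, against 34.6, 30.9 and 25.7 CPM in vehicle. No DEX library overlapped the vehicle libraries of its line. The log2 fold change was 0.47 ± 0.10 in HCC70 (adjusted p = 0.0246) and 0.99 ± 0.11 in MDA-MB-231 (adjusted p = 2.19e-05). The HCC70 call ended without any 1 of its 6 libraries (adjusted p = 0.0597 to 0.116); with the GC trend removed the log2 fold changes were 0.26 (adjusted p = 0.0024) and 1.26 (adjusted p = 1.26e-11). THRA shares 263 exon bases with NR1D1 on the opposite strand, a clock repressor. NR1D1 had log2 fold changes of 0.08 in HCC70 (adjusted p = 0.521) and -0.15 in MDA-MB-231 (adjusted p = 0.12).

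PPARG (ENSG00000132170.15), the fat cell receptor for fatty acids and glitazones, had 51.1, 43.4 and 48.1 CPM with DEX in MDA-MB-231, against 24.9, 26.9 and 26.2 CPM in vehicle. PPARD (ENSG00000112033.9), a fatty acid receptor found in most tissues, had 57.5, 74.1 and 60.7 CPM with DEX in MDA-MB-231, against 103, 88.4 and 82.9 CPM in vehicle. The groups were apart for both genes, in opposite directions. On the log2 scale PPARG changed by 0.87 ± 0.089 (adjusted p = 1.02e-05) and PPARD by -0.51 ± 0.097 (adjusted p = 0.00234), and both calls held under every alternative run. The PPARD change was smaller with the GC trend removed (-0.30, adjusted p = 5.66e-05). In HCC70, PPARG had 12.7, 12.6 and 11.2 CPM with DEX, against 13.2, 14.5 and 11.4 CPM in vehicle, and the groups overlapped. PPARA, the third of the family, averaged 68 CPM with DEX and 65.9 CPM in vehicle in HCC70, and 27.7 CPM with DEX and 28.2 CPM in vehicle in MDA-MB-231, and passed in neither line.

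VDR (ENSG00000111424.6), the vitamin D receptor, had 9.49, 11.9 and 10.3 CPM with DEX in MDA-MB-231, against 15.4, 14.1 and 11.6 CPM in vehicle. DEX 2 lay above vehicle 3, so the groups overlapped. The test gave -0.37 ± 0.099 (adjusted p = 0.0233), and the call ended without DEX 1 (adjusted p = 0.115), DEX 3 (0.0883), vehicle 1 (0.0868) or vehicle 2 (0.0753). Fitting MDA-MB-231 alone ended the VDR call too. THRB (ENSG00000151090.12), the beta thyroid hormone receptor gene, had 3.74, 3.37 and 3.62 CPM with DEX in MDA-MB-231, against 4.14, 4.6 and 4.16 CPM in vehicle. These groups did not overlap (log2 fold change -0.27 ± 0.072, adjusted p = 0.0243). That call ended without DEX 2 (adjusted p = 0.0984), DEX 3 (0.0683), vehicle 2 (0.0944) or HCC70 DEX 1 (0.0591), and with scaling by library size only (0.0843) or upper quartile (0.0511). Leaving out vehicle 1 and DEX 2 together, or fitting MDA-MB-231 alone, ended the THRB call too. The oxysterol receptors NR1H2 and NR1H3 passed in neither line, with log2 fold changes of 0.17 and -0.04 in HCC70 and -0.24 and -0.32 in MDA-MB-231.

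Of the orphan receptors, NR2F2 (ENSG00000185551.7) gave the smallest adjusted p of all members under DEX. It encodes COUP-TFII, a regulator of vessel and organ development that can repress targets of other receptors. NR2F2 had 82.1, 85.3 and 81.7 CPM with DEX in MDA-MB-231, against 209, 197 and 191 CPM in vehicle. It had 64.7, 64.4 and 61.6 CPM with DEX in HCC70, against 80.9, 81.4 and 79 CPM in vehicle. Both pairs of groups were far apart for their spread. The log2 fold change was -0.34 ± 0.054 in HCC70 (adjusted p = 0.00202) and -1.26 ± 0.054 in MDA-MB-231 (adjusted p = 1.36e-09), and both calls held under every alternative run. Its relative NR2F1 (ENSG00000175745.7), which encodes COUP-TFI, had 3.02, 3.81 and 2.25 CPM with DEX in MDA-MB-231, against 5.05, 4.54 and 3.98 CPM in vehicle. The groups did not overlap (log2 fold change -0.58 ± 0.17, adjusted p = 0.037), but 8 of the 12 single-library removals ended the call (adjusted p = 0.0516 to 0.149). So did removing the GC trend (-0.37, adjusted p = 0.0736) and fitting MDA-MB-231 alone. NR2F6, the third COUP family gene, averaged 254 ± 17.3 CPM with DEX and 202 ± 7.81 CPM in vehicle in HCC70, and 37.1 ± 11 CPM with DEX and 61.9 ± 18.4 CPM in vehicle in MDA-MB-231 (adjusted p = 0.472 and 0.057).

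The NR4A receptors are early response genes that act without a classical ligand. NR4A2 (ENSG00000153234.9), also known as NURR1, had 10.4, 10.2 and 10.6 CPM with DEX in HCC70, against 14.7, 15.3 and 15 CPM in vehicle. In MDA-MB-231 it had 0.605, 0.896 and 0.79 CPM with DEX, against 1.07, 1.67 and 1.38 CPM in vehicle. All DEX libraries lay below the vehicle libraries of their line. NR4A2 changed by -0.52 ± 0.12 on the log2 scale in HCC70 (adjusted p = 0.0276) and -0.85 ± 0.16 in MDA-MB-231 (adjusted p = 0.00214). The HCC70 call ended without any 1 of its 6 libraries (adjusted p = 0.0779 to 0.112), and the MDA-MB-231 call held under every alternative. NR4A1 and NR4A3 did not pass: NR4A1 averaged 31.5 CPM with DEX and 23 CPM in vehicle in HCC70, and 11.9 CPM with DEX and 9.81 CPM in vehicle in MDA-MB-231. NR4A3 had 0.168, 0.0808 and 0.194 CPM with DEX in MDA-MB-231, against 0.335, 0.414 and 0.333 CPM in vehicle, groups that did not overlap (adjusted p = 0.0746). Among the alternatives, NR4A3 was called lower there with MDA-MB-231 fitted alone or without HCC70 vehicle 3.

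NR5A2 and HNF4G, both at low levels, rose in MDA-MB-231. NR5A2 (ENSG00000116833.8), also known as LRH-1, a phospholipid-binding receptor of liver, gut and ovary, had 0.972, 1.13 and 1.08 CPM with DEX, against 0.159, 0.219 and 0.21 CPM in vehicle. The groups were apart by several times their spread. Its log2 fold change was 2.43 ± 0.27 (5.39-fold, adjusted p = 2.13e-05) and the call held under every alternative. In HCC70 it had 5 counts over the DEX libraries and 3 over the vehicle libraries, a ratio of 1.73 with a 95% counting interval of 0.337 to 11.1. HNF4G (ENSG00000164749.7), a relative of the liver receptor HNF4A, had 0.452, 0.493 and 0.441 CPM with DEX in MDA-MB-231, against 0.192, 0.18 and 0.28 CPM in vehicle. These groups did not overlap (log2 fold change 1.09 ± 0.31, adjusted p = 0.0336), and the call ended without any 1 of DEX 1, 2 or 3 and vehicle 1 or 2 (adjusted p = 0.0537 to 0.111). RORB had no count in any HCC70 library, and in MDA-MB-231 it had 0.0766, 0.0888 and 0.0852 CPM with DEX, against 0.125, 0.164 and 0.0701 CPM in vehicle. NR2C1, NR2C2 and NR6A1 did not pass, with log2 fold changes between -0.24 (NR2C1 in HCC70) and 0.13 (NR2C1 in MDA-MB-231).

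The estrogen-related receptors ESRRA, ESRRB and ESRRG resemble the estrogen receptors ESR1 and ESR2 and act without estrogen. ESRRG (ENSG00000196482.10) had 0.0919, 0.0565 and 0.031 CPM with DEX in MDA-MB-231, against 0.0167, 0.00781 and 0 CPM in vehicle. All DEX libraries lay above all vehicle libraries, but these levels are 23 counts in all with DEX and 3 in vehicle. Their ratio was 7.23 with a 95% counting interval of 2.18 to 37.6, and the test gave an adjusted p of 0.0389. The call ended without DEX 1 (adjusted p = 0.169), any 1 of the vehicle libraries (0.051 to 0.111) or HCC70 vehicle 1 (0.053). ESRRA (ENSG00000173153.9), which works with the PGC-1 coactivators on mitochondrial genes, had 90.6, 89.8 and 92.1 CPM with DEX in HCC70, against 60.4, 63.2 and 70.1 CPM in vehicle. The HCC70 groups were apart, and the adjusted p was 0.0892. In MDA-MB-231 ESRRA had 48, 65 and 51.2 CPM with DEX, against 88.8, 66.4 and 59.5 CPM in vehicle (adjusted p = 0.0919), where DEX 2 lay above vehicle 3. ESRRA shares 284 exon bases with TRMT112 on the opposite strand. TRMT112 was at 54.2 to 68.3 CPM in HCC70 and 94 to 118 CPM in MDA-MB-231. It had log2 fold changes of -0.18 in HCC70 (adjusted p = 0.218) and 0.09 in MDA-MB-231 (adjusted p = 0.479). The part of shared reads in the ESRRA values was not tested. ESR1, the estrogen receptor alpha gene, had 3.11, 2.82 and 3.28 CPM with DEX in HCC70, against 3.94, 3.9 and 4 CPM in vehicle. The groups did not overlap, and the difference did not pass (log2 fold change -0.36 ± 0.12, adjusted p = 0.136).

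The responses of the lines were then compared with each other by an interaction contrast, HCC70 response minus MDA-MB-231 response. It was passed by 12 members, 27.9% of those tested against 12.1% of all genes, 7 with a positive and 5 with a negative difference, against 6.96% and 5.09% of all genes. The call held under every alternative for PPARGC1B (1.42 ± 0.18, adjusted p = 0.000193), NR2F2 (0.92 ± 0.076, adjusted p = 3.03e-06), NCOA3 (-1.0 ± 0.099, adjusted p = 2.03e-05), PPARG (-0.96 ± 0.13, adjusted p = 0.000246) and NRIP1 (-0.63 ± 0.12, adjusted p = 0.00487). NR2F2 fell in both lines, by more in MDA-MB-231. NCOA3, PPARG and NRIP1 rose in MDA-MB-231 and had log2 fold changes of -0.07, -0.09 and 0.18 in HCC70. PPARGC1A and NR4A2, called in both lines, did not pass the difference (adjusted p = 0.0759 and 0.292), which does not show that they responded alike. For ESRRA, RARA, RARG, VDR and EHMT2 the difference was positive, with a positive log2 fold change in HCC70 and a negative one in MDA-MB-231, and all 5 have a GC content of 54.2 to 63.2%.

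Removing a smooth trend with GC content and length from each library changed which members passed. Members that fell in MDA-MB-231 had a median GC content of 57.4%, those that rose 40.2%, and all tested genes 47.9%. In HCC70, 10 members passed with the trend removed, the same 6 and ESRRA (0.25, adjusted p = 0.00174), PPARD (-0.23, adjusted p = 0.00249), NRIP1 (0.23, adjusted p = 0.0143) and EP300 (-0.23, adjusted p = 0.0101). In MDA-MB-231, 18 passed, of which 15 were called before; RARA, RARG and NR2F1 dropped out. NR4A1 (0.53, adjusted p = 0.0252), NR2F6 (-0.22, adjusted p = 0.0332) and RXRB (0.13, adjusted p = 0.0429) came in. The share of all genes called with the trend removed is not reported here, so these counts have no background beside them.

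**Figure D3:**
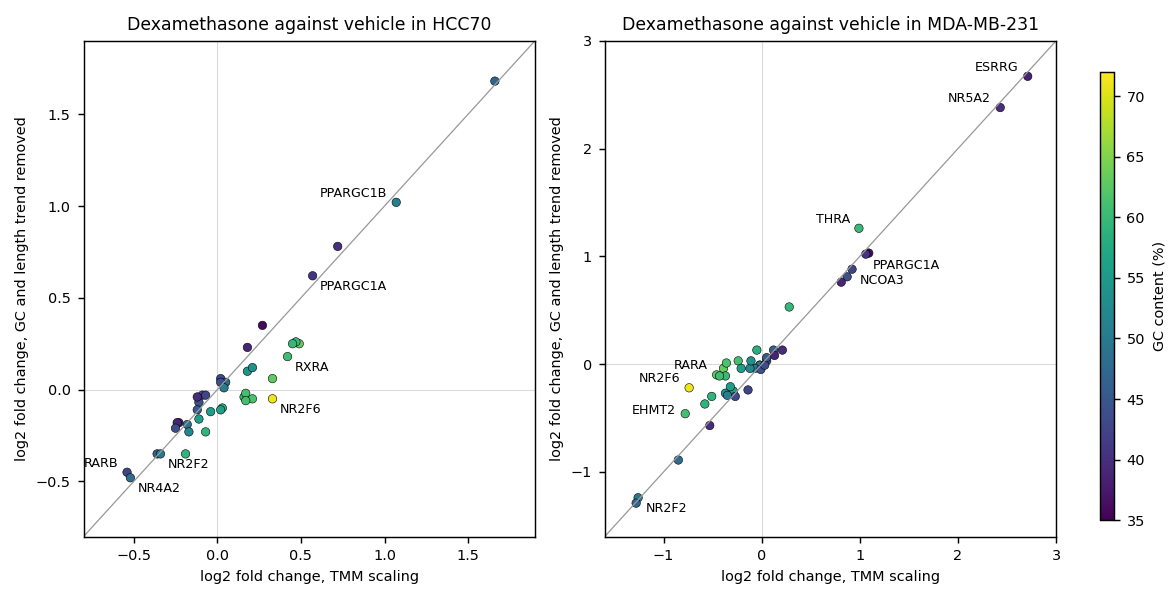
Log2 fold change of each tested member with DEX against vehicle under TMM scaling (x axis) and with the GC and length trend removed (y axis), HCC70 left and MDA-MB-231 right, coloured by GC content in percent, with a line where both are equal. PPARGC1B, NR2F2 and NR5A2 stay on the line, while GC-rich genes such as NR2F6 (-0.74 and -0.22 in MDA-MB-231) lie nearer 0 on the y axis and THRA lies at 1.26 on it, against 0.99 on the x axis.

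In vehicle the lines differed in most members: 28 were higher and 12 lower in HCC70 than in MDA-MB-231, 93.0% of the 43 tested, against 79.2% of all genes, of which 39.2% were higher and 40.0% lower. The groups did not overlap for 39 members, against 80.3% of all genes. The median log2 difference was 0.73 over the members and -0.03 over all genes. A difference of at least 4-fold was reached by 9 members with higher and 4 with lower levels in HCC70, against 26.0% of all genes in either direction. Retinoid and estrogen-related genes led the side higher in HCC70, and orphan receptors the other. RORB, NR4A3, NR5A2 and HNF4G had enough reads to be tested only through MDA-MB-231, and ESRRG and RARB only through HCC70. The filter on low counts thus favoured a difference between the lines for these genes. They are included in the called and 4-fold members above, and their calls add no separate support. The members that did not pass were ESRRA (-0.15), PPARD (0.07) and EHMT2 (0.19). With the GC and length trend removed they were called lower in HCC70, at -0.66 (adjusted p = 6.18e-10), -0.38 (2.69e-07) and -0.26 (0.000634). SMARCA4 then lost its call (0.08, adjusted p = 0.136) and EHMT1 turned to -0.17 (adjusted p = 0.0249). In that fit 26 members were higher and 16 lower in HCC70, without a share of all genes beside them.

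CRABP2 had 538, 525 and 510 CPM in HCC70 vehicle, against 4.33, 4.16 and 4.4 CPM in MDA-MB-231 vehicle, a log2 difference of 6.93 ± 0.083 (122-fold, adjusted p = 3.47e-16). RARB had 2.53, 2.23 and 2.18 CPM in HCC70, against 0.0502, 0.0703 and 0.0788 CPM in MDA-MB-231, a log2 difference of 5.10 ± 0.19. In both, every HCC70 library lay far above every MDA-MB-231 library. ESR1 had 3.94, 3.9 and 4 CPM in HCC70, against 0.092, 0.0781 and 0.0438 CPM in MDA-MB-231, a log2 difference of 5.76 ± 0.19. ESRRG had 1.29, 0.855 and 1.55 CPM in HCC70, against 0.0167, 0.00781 and 0 CPM in MDA-MB-231. These are 429 and 3 counts, a ratio of 149 with a 95% counting interval of 50.7 to 726. Among the next largest, NR4A2 differed by 3.44 ± 0.14 on the log2 scale, the coactivator NCOA2 by 2.81 ± 0.095 (119, 112 and 119 CPM in HCC70, against 14.2, 18.5 and 17 CPM in MDA-MB-231), THRB by 2.69 ± 0.071 and VDR by 2.46 ± 0.10.

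RORB, a retinoid-related orphan receptor, had no count in HCC70 vehicle and 44 counts in MDA-MB-231 vehicle. Against the 3 counts over the group that a count of 0 allows, it was at least 14.1-fold lower in HCC70. NR5A2 had 3 counts in HCC70 and 71 in MDA-MB-231, 22.7-fold lower with a 95% counting interval of 7.45 to 113. NR4A3 had 0, 0 and 0.0429 CPM in HCC70, against 0.335, 0.414 and 0.333 CPM in MDA-MB-231 (log2 difference -4.55 ± 0.67), and HNF4G differed by -3.57 ± 0.52. In vehicle these 4 orphan receptors are at or under 0.414 CPM in both lines, so the differences rest on few reads. At higher levels, PPARGC1B differed by -1.54 ± 0.13, NR2F2 by -1.31 ± 0.054, NR2F1 by -1.24 ± 0.18 and PPARG by -1.0 ± 0.09. NR2F2 had 80.9, 81.4 and 79 CPM in HCC70, against 209, 197 and 191 CPM in MDA-MB-231. PPARG had 13.2, 14.5 and 11.4 CPM in HCC70, against 24.9, 26.9 and 26.2 CPM in MDA-MB-231.

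**Figure D4:**
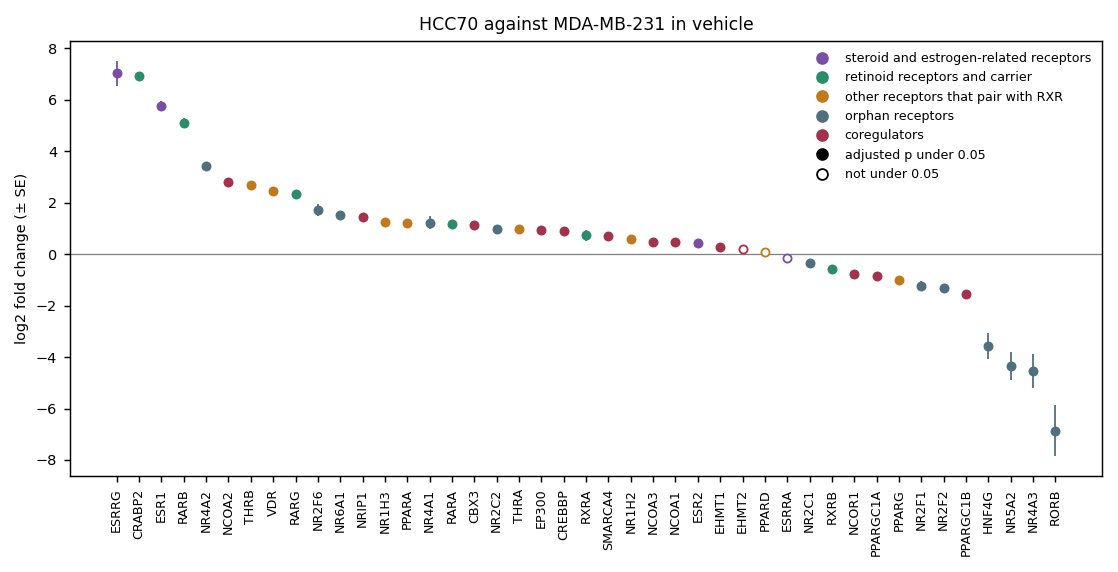
Log2 difference (y axis, ± SE) between HCC70 and MDA-MB-231 in vehicle for each tested member, ordered by size and coloured by role; filled points passed the adjusted p of 0.05. CRABP2, ESRRG, ESR1 and RARB stand above 5, and RORB, whose position is a fitted value for a gene without counts in HCC70, stands lowest.

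Per kilobase of annotated exon, CRABP2 had the highest level of the members in HCC70 vehicle (476 CPM per kb), followed by NR2F6 (75.5), CBX3 (36.8), SMARCA4 (28.9) and EHMT2 (28.8). CBX3 shares 368 exon bases with HNRNPA2B1 on the opposite strand. HNRNPA2B1 was at 1450 to 1490 CPM in HCC70 vehicle, where CBX3 averaged 171 CPM. The part of shared reads in the CBX3 level was not tested. In MDA-MB-231 vehicle NR2F2 came first (30.8 CPM per kb), followed by EHMT2 (25.2), ESRRA (23.6), NR2F6 (23.1) and PPARD (20.5). Mean levels above 10 CPM in vehicle were reached by 31 members in HCC70 and 27 in MDA-MB-231. The 8 members with too few reads to test were the progesterone receptor PGR, ESRRB, RXRG, the bile acid receptor NR1H4, the xenobiotic receptor NR1I2, HNF4A, NR0B1 and NR0B2. None of them exceeded 0.171 CPM or 19 counts in a library, and NR0B1 had no count at all.

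Other genes of these pathways were counted on lists kept separate from the members. Of 28 further coregulators, 1 rose in HCC70 (3.57%, against 3.96% of all genes), and 1 rose and 3 fell in MDA-MB-231 (14.3%, against 14.6% of all genes). The one in HCC70 was PPRC1, the third PGC-1 family gene, with 90.8 ± 4.47 CPM with DEX and 69.7 ± 1.41 CPM in vehicle (log2 fold change 0.38 ± 0.084, adjusted p = 0.0213). In MDA-MB-231 NCOA7 fell by 0.38 on the log2 scale (adjusted p = 0.00276) and TBL1XR1, a corepressor subunit, rose by 0.29 (adjusted p = 0.00785). Of the 9 remaining nuclear receptors tested, none passed in HCC70 (2 at an unadjusted p under 0.05), and 3 passed in MDA-MB-231: NR3C1 (-0.50 ± 0.065, adjusted p = 0.000112), the mineralocorticoid receptor NR3C2 (-0.61 ± 0.10, adjusted p = 0.00082) and the clock receptor NR1D2 (0.42 ± 0.069, adjusted p = 0.000868).

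Among 16 tested genes of retinoid metabolism and transport, 1 rose and 1 fell in HCC70 (12.5%, against 3.96% of all genes), and 4 rose and 5 fell in MDA-MB-231 (56.2%, against 14.6% of all genes). DHRS3, a retinaldehyde reductase, rose in both lines, to 152 ± 5.25 CPM with DEX, against 122 ± 1.79 CPM in vehicle in HCC70, and to 4.75 ± 0.411 CPM with DEX, against 2.31 ± 0.295 CPM in vehicle in MDA-MB-231. RDH10, which makes retinaldehyde from retinol, fell in both lines (log2 fold change -0.38 ± 0.058 in HCC70 and -0.42 ± 0.065 in MDA-MB-231, adjusted p = 0.00166 and 0.000476). In vehicle, 13 of these 16 were higher and 2 lower in HCC70 (93.8%, against 79.2% of all genes), with a median log2 difference of 3.27, against -0.03 over all genes. RDH10 averaged 104 ± 3.25 CPM in HCC70 and 4.59 ± 0.315 CPM in MDA-MB-231.

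Of 15 tested target genes of the member receptors, 3 rose and 1 fell in HCC70 (26.7%, against 3.96% of all genes), and 4 rose and 6 fell in MDA-MB-231 (66.7%, against 14.6% of all genes). Of the 15, 2, DHRS3 and RARRES1, stand on the retinoid list too. CPT1A, a fatty acid oxidation gene under PPAR control, rose in both lines (log2 fold change 0.32 ± 0.056 in HCC70, adjusted p = 0.00459, and 0.29 in MDA-MB-231, adjusted p = 0.00268). In MDA-MB-231 the lipid droplet gene PLIN2, a PPAR target, averaged 204 ± 8.18 CPM with DEX and 81.4 ± 5.5 CPM in vehicle (1.32 ± 0.077, adjusted p = 3e-08). GREB1, an estrogen receptor target, rose there by 1.94 ± 0.21, while the oxysterol receptor target ABCG1 fell by 1.55 and the vitamin D target TRPV6 fell by 1.3 on the log2 scale. In HCC70 CYP27B1, the enzyme that activates vitamin D, rose by 0.56 ± 0.093 (adjusted p = 0.00294), and its exons share bases with METTL1. MYLIP, an oxysterol receptor target, fell in both lines. In the MDA-MB-231 libraries ESR1 was at or under 0.092 CPM and ESR2 at 0.796 to 0.887 CPM. Whether either receptor acted on GREB1 was not tested.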

How the data were processed

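Whole-number read counts per gene were deposited by the authors in 1 table, not scaled between libraries. Reads were mapped to hg19, with TopHat 1.4.1, Cufflinks 1.3.0 and bedtools named, per the submitters' processing notes; the tool that made the counts is not given in the sources used here. Per the labels' protocols, polyA RNA was used with a kit that does not mark strand. All 12 libraries were fitted together in edgeR 4.0.16 (R 4.3.3): filterByExpr (minimum count 10, 28141 genes kept), TMM scaling and a robust quasi-likelihood fit with 1 mean per group (8 residual degrees of freedom). Tests were two-sided, adjusted by Benjamini-Hochberg over all tested genes at 0.05. A group total of 3 counts, the limit that a count of 0 allows, equals 0.00782 to 0.00898 CPM. Counting intervals (exact, 95%) and this limit cover counting error only. GC content, length and exon overlap came from GENCODE 29 on another build, for 25272 tested genes (89.8%). Values in every library are given for members passing under DEX, and 8 members per direction are named between the lines; up to 4 passing genes are named per further list, of which some are not reported here. Values of other members were added after they were seen. Members, lists and tests were chosen with earlier results of these data known. Fits were checked on simulated counts. Alternatives were scaling by library size, upper quartile or the size factors of DESeq2 1.42.0, other filters, the DESeq2 Wald test, no robust fit, a replicate block, lines fitted alone, a GC and length offset (without and with the block), libraries left out and members without exon overlap.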

Additional observations from a re-analysis of the deposited data

Results flagged for a closer look

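The response to DEX differed between the lines, by the interaction test in edgeR, for 12 members. Each value is the HCC70 log2 fold change minus that of MDA-MB-231. It was positive for PPARGC1B (1.42, adjusted p = 0.000193), EHMT2 (0.95, 0.0363), NR2F2 (0.92, 3.03e-06), ESRRA (0.88, 0.0182), RARA (0.80, 0.0118), VDR (0.55, 0.0224) and RARG (0.53, 0.013). It was negative for ESRRG (-2.93, 0.0391), NCOA3 (-1.0, 2.03e-05), PPARG (-0.96, 0.000246), NRIP1 (-0.63, 0.00487) and THRA (-0.52, 0.0381). With the GC and length trend removed, RARA (0.16, adjusted p = 0.179) and RARG (0.07, adjusted p = 0.555) no longer passed, ESRRA was 0.30 and EHMT2 0.40, and THRA was -1.01; the part of GC content in the uncorrected values was not tested further. The calls of ESRRG, THRA and EHMT2 each ended under 8 of the 12 single-library removals (adjusted p = 0.051 to 0.134, 0.0566 to 0.0836 and 0.0551 to 0.0968), that of VDR under 6 (0.0534 to 0.0692), and that of ESRRA without HCC70 vehicle 1 (0.0567) or MDA-MB-231 DEX 3 (0.0508). ESRRG rests on 23 and 3 counts with DEX and vehicle in MDA-MB-231, and was tested only because of its HCC70 counts.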

How the results depend on the processing

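Of 6 members called under DEX in HCC70, 18 in MDA-MB-231, 12 for the difference of the responses and 40 between the lines in vehicle, counts moved by over 1.5 times as follows. With the line fitted alone 21 passed in HCC70 and 11 in MDA-MB-231, the reverse order of the joint fit. Without MDA-MB-231 vehicle 1 and DEX 2 together, 16 passed in HCC70 and 22 for the difference. The GC and length offset gave 10 in HCC70. The DESeq2 Wald test gave 19 for the difference. Among the 20 tested members without exon overlap, 3 passed in HCC70, 9 in MDA-MB-231, 4 for the difference and 19 between the lines, since fewer genes are counted. Leaving out 1 library at a time gave 2 to 8 in HCC70, 10 to 23 in MDA-MB-231, 7 to 21 for the difference and 39 to 41 in vehicle. The shares of all genes called under these alternatives are not reported here, so the counts are not set against a background. Other causes were not tested.

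Same-numbered libraries did not deviate together: their deviations correlated at -0.358, 0.226 and -0.0704 in HCC70 and -0.762, -0.379 and 0.594 in MDA-MB-231. With 3 libraries per group this cannot show whether they share a culture, which the labels do not state. With a replicate block 3 members passed in HCC70 and 5 for the difference. The block ended the calls of RARB, THRA and PPARGC1A in HCC70. In MDA-MB-231 it ended those of ESRRG, RARA, RARG, THRB, VDR and HNF4G. The sign turned, with a call, only under the GC and length offset: RXRB in MDA-MB-231 (0.13) and for the difference (-0.23, also with the block), and between the lines PPARD (-0.38, also with the block), EHMT1 (-0.17, or -0.16 with the block) and EHMT2 (-0.26, also with the block). Depth limits the members under 1 CPM.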
